A study of Homo sapiens with 14 samples.

Results

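ALB, AFP, AFM and GC form the albumin gene cluster on human chromosome 4 and encode albumin, alpha-fetoprotein, afamin and the vitamin D binding protein. The members were taken by gene symbol from the deposited count table. Each symbol matched 1 entry, so that 4 of 56479 gene entries are described, and all 4 were among the 19232 genes with enough reads to be tested. The filter asks for a minimum count of about 10 in at least 2 libraries, which GC reached in 0 of 8 HepG2 libraries and AFM in 3 of 8, while all 4 members reached it in the 6 Hep3B libraries.

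RNA had been sequenced from HepG2 and Hep3B, established human liver tumour lines that the labels class as hepatoblastoma and hepatocellular carcinoma. The 14 libraries fall into 7 groups with 2 replicates each, and none carries a genetic change introduced by the study. On dishes, HepG2 cells grew for 5 days either in isotonic medium or with 4% polyethylene glycol 300 (PEG). PEG is an uncharged solute that draws water out of cells. HepG2 cells on transwells, inserts with a porous membrane floor, were either uncompressed or loaded with a weight, and Hep3B cells on transwells were uncompressed, loaded with a weight or given 3% PEG. How heavy the weight was, and how long transwell cultures lasted, is not stated in the labels. The labels speak of biological replicates without describing separate cultures, so each p-value rests on the spread between labelled samples, which may be technical. Unless stated otherwise that spread is pooled over all 14 libraries, so a p-value does not measure the spread of the compared groups alone. As each line stands for 1 tumour, differences between the lines are differences between these 2 lines.

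The proteins of the cluster share a fold of repeated, disulfide-bonded domains and are secreted into blood by hepatocytes. Albumin is the main carrier protein of plasma, alpha-fetoprotein is its counterpart in fetal liver and returns in many liver tumours, afamin carries vitamin E and lipid-modified Wnt proteins, and the GC product carries vitamin D metabolites and binds actin released from damaged cells. Transcription of the genes depends on liver factors such as C/EBP, FOXA and HNF4 proteins, while ZHX2 and ZBTB20 are known as repressors that silence AFP after birth.

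In GENCODE 29 on GRCh38, GC (ENSG00000145321) occupies chr4:71741693-71804041 on the minus strand. ALB (ENSG00000163631) lies at chr4:73397114-73421412, AFP (ENSG00000081051) at chr4:73431138-73456174 and AFM (ENSG00000079557) at chr4:73481683-73504001, all on the plus strand. ALB and AFP are separated by 9.73 kb and AFP and AFM by 25.5 kb, whereas GC stands 1593 kb away from ALB.

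The RefSeq promoter table (GRCh38.p14) held 3 of the 4 members; GC was not matched. Their upstream sequences are shown because the regulators described later bind elements of this kind. Each is printed 5′ to 3′ on the plus strand, from 250 bases before the RefSeq start to the last base before the first GENCODE exon that reaches into that window. Capitals mark matches to the motifs searched. The ALB stretch is chr4:73404037-73404238 and the AFP stretch chr4:73435971-73436162, both in introns of longer GENCODE transcripts. The AFM stretch, chr4:73481495-73481682, is intergenic.
ALB: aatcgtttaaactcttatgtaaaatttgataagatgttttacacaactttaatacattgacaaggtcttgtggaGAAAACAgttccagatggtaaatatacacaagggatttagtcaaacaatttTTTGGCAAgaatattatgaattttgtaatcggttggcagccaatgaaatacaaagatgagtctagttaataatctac
AFP: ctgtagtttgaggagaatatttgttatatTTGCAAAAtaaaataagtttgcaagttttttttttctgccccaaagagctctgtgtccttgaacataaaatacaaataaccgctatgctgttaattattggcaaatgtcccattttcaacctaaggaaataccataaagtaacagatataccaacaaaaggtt
AFM: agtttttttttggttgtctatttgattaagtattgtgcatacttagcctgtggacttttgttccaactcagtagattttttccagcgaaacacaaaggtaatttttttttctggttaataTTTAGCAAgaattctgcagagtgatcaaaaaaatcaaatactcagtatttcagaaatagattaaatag

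The searches covered both strands of the table's windows, which run from 250 bases before to 50 bases after each start. A C/EBP match, TTGCNNAA, was found in all 3, on the minus strand in ALB and AFM and on the plus strand in AFP, compared with 10.5% of all 35116 promoters. The FOXA match TGTTTNC was found in ALB only, as GAAAACA in plus-strand letters, and in 18% of all promoters. With the start at 0, TATAAA lay at −29 in AFP and −30 in AFM, outside the printed stretches, and in 11.5% of all promoters. The HNF4 letters CAAAGNNCA were found in none of the 3 windows and in 5.28% of all. These matches are descriptions of the letters and were not tested as binding sites.

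The shallowest library held 21.2 M counts and the deepest 35.4 M. Levels below are CPM, counts relative to a library total scaled by TMM, a factor that evens out differences in RNA composition, and are given as mean ± SD with n = 2 unless single libraries are listed. All 8 hepatocyte markers tested exceeded 1 CPM in each of the 7 groups. Among the markers of other cell types, the leukocyte gene PTPRC had no count in HepG2, the fibroblast gene COL1A2 had none in HepG2 and the endothelial gene CDH5 had none in Hep3B. In the other line their highest group means were 0.0604, 1.16 and 6.11 CPM. Other markers of these cell types were detected: endothelial PECAM1 at up to 11.2 CPM and leukocyte CD68 at up to 9.41 CPM in HepG2, and fibroblast LUM at up to 16.7 CPM in Hep3B. The lysozyme gene LYZ in HepG2 and the bile duct genes KRT19 and SOX9 in both lines were well expressed, SOX9 at 71.2 to 435 CPM over the 7 groups, whereas the bile duct genes KRT7 and CFTR did not exceed a mean of 1.24 CPM. The highest group mean of any other such marker was 26.3 CPM, for PDGFRB. Replicates on dishes were further apart than those on transwells, with a biological coefficient of variation, as edgeR names it, of 0.320 and 0.290 in the dish groups against 0.0459 to 0.0705 in the 5 transwell groups. Across genes, the difference between replicates followed the G+C content of the transcript on dishes, with a Spearman correlation of −0.642 and −0.652. In the transwell groups the correlation was −0.241 to 0.0467. The cause was not tested.

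In the replicates of isotonic HepG2 the 4 genes together took 6.31% and 6.34% of all counts. The share was 5.82% and 5.89% in uncompressed HepG2 on transwells and 4.63% and 4.66% under the weight. In Hep3B it was 3.502% and 3.42% uncompressed, 3.25% and 3.37% under the weight and 2.15% and 2.08% with 3% PEG. The lowest share, 0.568% and 0.421%, belonged to HepG2 with 4% PEG. ALB was the gene with the most counts in 12 of 14 libraries, and ranked 15 and 22 in the 4% PEG libraries.

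**Figure D1:**
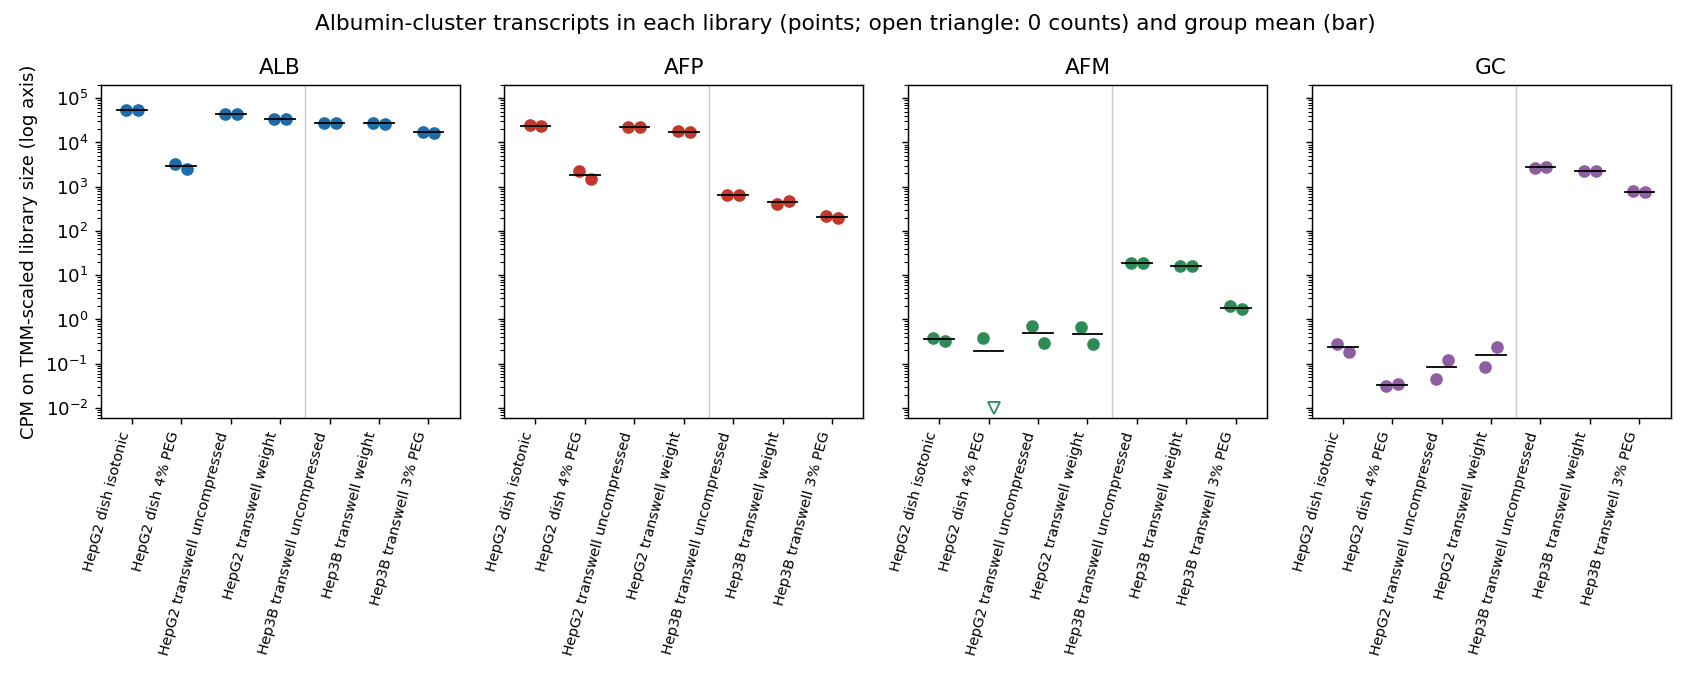
Level of each cluster gene in every library, in CPM on a log axis, for the 7 groups; dots are libraries, bars are group means and open triangles mark libraries with no count. ALB and AFP span a wide range within HepG2, and AFM and GC are near the detection limit in HepG2 and well above it in Hep3B.

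ALB, in order of level, measured 54408.5 and 53840 CPM in isotonic HepG2, 43038 and 43438 in uncompressed HepG2 on transwells, 33151 and 34556 in HepG2 under the weight, 27646 and 27538.5 in uncompressed Hep3B, 26910.2 and 26851 in Hep3B under the weight, 17338 and 16497 in Hep3B with 3% PEG, and 3263 and 2578 in HepG2 with 4% PEG. No 2 neighbouring groups overlapped in this order. AFP measured 24487 and 23059 CPM in isotonic HepG2, 22768 and 22429 in uncompressed HepG2 on transwells, 17746 and 17681 in HepG2 under the weight and 2251 and 1463 in HepG2 with 4% PEG. Its Hep3B values were 636.7 and 636.8 uncompressed, 408 and 480.3 under the weight and 222 and 197 with 3% PEG. Thus the AFP groups did not overlap either, and every HepG2 library exceeded every Hep3B library.

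GC showed the opposite split between the lines. Its Hep3B counts were 77500 and 80390 uncompressed, 60529 and 57470 under the weight and 19442 and 21125 with 3% PEG, which correspond to 2764 ± 80.003, 2309 ± 26.4 and 765 ± 26.3 CPM. No HepG2 library held more than 8 GC counts: 8 and 4 in isotonic medium, 1 and 1 with 4% PEG, 1 and 3 uncompressed on transwells and 2 and 5 under the weight. The 3 Hep3B groups were separate, and the HepG2 groups in isotonic medium, under the weight and uncompressed followed each other with overlap.

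AFM was the least abundant member in Hep3B. Its counts there were 543 and 530 uncompressed, 418 and 409 under the weight and 50 and 48 with 3% PEG, or 18.8 ± 0.264, 16.2 ± 0.159 and 1.85 ± 0.226 CPM. In HepG2 they were 11 and 7 in isotonic medium, 12 and 0 with 4% PEG, 16 and 7 uncompressed on transwells and 16 and 6 under the weight. The 3 Hep3B groups did not overlap with each other or with HepG2, while the 4 HepG2 groups overlapped throughout.

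Per kb of exon sequence, the order of the 4 genes differed between the lines: ALB, AFP, AFM, GC in every HepG2 group and ALB, GC, AFP, AFM in every Hep3B group. This order was the same when the longest transcript replaced the union of exons as the length.

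The first comparison asked how 4% PEG for 5 days bore on the cluster in HepG2. ALB and AFP fell steeply, by 18.5-fold and 12.8-fold, and ended closer to each other than before. ALB was 54124 ± 402 CPM in isotonic medium and 2920.5 ± 485 with PEG, a log2 fold change of −4.21 ± 0.13 (standard error; quasi-likelihood test of edgeR, Benjamini-Hochberg adjusted p = 2.55e-09). AFP was 23773 ± 1010 and 1857 ± 558 CPM, a log2 fold change of −3.68 ± 0.19 (edgeR, adjusted p = 5.18e-08). These p-values use the spread pooled over 14 libraries, and the dish replicates were further apart than the others. When the 4 dish libraries were fitted alone, both were called, ALB with an edgeR adjusted p of 0.00113 and AFP with 0.00147. In the same libraries LYZ was 4203 ± 599 CPM in isotonic medium and 523 ± 54.2 with PEG, and the bile duct keratin gene KRT19 was 38.1 ± 18.9 and 546 ± 113 CPM. The 4 bile duct markers summed to between 411 and 422 CPM in isotonic medium and between 726 and 842 with PEG. The mitochondrial share of a library's counts was 1.87% and 0.999% without PEG and 7.34% and 5.05% with it. The part of these in the falls was not tested. In a culture of bulk RNA, fewer cells expressing a gene and less RNA per cell cannot be told apart.

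GC, with 12 counts in isotonic medium and 2 with PEG, gave a ratio of 0.136 (exact 95% interval from counting error 0.0148 to 0.61) and an edgeR adjusted p of 0.00502. That call rests on isotonic replicate 1, without which the adjusted p was 0.0731. AFM, with 18 against 12 counts, had a ratio of 0.543 (0.239 to 1.19) and an edgeR adjusted p of 0.42; all 12 PEG counts came from replicate 1, and without that library the adjusted p was 0.00597. ALB and AFP were thus the members called lower on ample counts, in a comparison in which 46.9% of all tested genes were called, 23.9% of all tested genes being higher and 23% lower. GC was tested in HepG2 only because of its counts in Hep3B, and its call is not counted with them.

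The ALB fall was among the steepest of the secreted liver proteins. Of 30 plasma protein genes outside the cluster, 24 fell and 1 rose, with a median log2 fold change of −1.95 compared with 0.01 over all genes. The shares over all tested genes were 23% lower and 23.9% higher. AHSG, which encodes the mineral-binding plasma protein fetuin-A, fell from 10297 to 408 CPM (log2 −4.66) and was 1 of the 2 plasma genes with a lower fold change than ALB. TF, the iron carrier transferrin (log2 −3.10), and APOH, a phospholipid-binding apolipoprotein (log2 −3.14), also fell. SERPINC1, antithrombin, was the 1 that rose (log2 0.46, adjusted p = 0.0259), a call that ended without 4% PEG replicate 2 or isotonic replicate 1, where the largest edgeR adjusted p was 0.21, and in the fit of the dish libraries alone (0.268).

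Among 31 regulators of the cluster, 17 fell and 3 rose with 4% PEG, with a median of −0.89. Over all tested genes 23% were lower and 23.9% higher. The steepest were ONECUT1, a liver homeodomain factor (log2 −4.36), NR1H4, the bile acid receptor (−3.68), and HLF, a PAR-domain factor that went from 1080.3 to 113 CPM (−3.25). The C/EBP factor CEBPA (−1.81) and FOXA2 (−0.91) fell less. HNF4A was 274 ± 68.6 and 294 ± 32.2 CPM, with a log2 fold change of 0.10 ± 0.15 (edgeR, adjusted p = 0.612). Its sign was not stable, and it ranged from −0.15 to 0.38 when 1 library was left out. Scaling by total counts raises the median of all genes in this comparison from 0.01 to 0.37.

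ZHX2, a repressor of AFP, fell together with AFP, from 163 to 43.2 CPM (log2 −1.92 ± 0.13, edgeR adjusted p = 3.53e-07). ZBTB20, the other repressor, differed by 1.01 ± 0.44 (edgeR, adjusted p = 0.0821). The 3 regulators that rose were NR5A2, a nuclear receptor that activates AFP, by 1.86, ZHX3, a relative of ZHX2, by 1.19 and GATA6 by 0.93, and 5 were called higher without isotonic replicate 1. When the 4 dish libraries were fitted alone, 12 regulators were lower and 2 higher, with GATA6 no longer called (adjusted p = 0.136).

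Other genes of fetal liver largely moved as AFP did: 10 of 15 fell and 2 rose, with a median of −1.22. The 10 include H19, at 0.0823 CPM in isotonic medium and 0 with PEG, which was tested only through its Hep3B counts. Those that fell include IGF2, a fetal growth factor (log2 −4.08), and GPC3, a cell surface proteoglycan of liver tumours (−1.83). The risers were the trypsin inhibitor SPINK1 (log2 4.23) and the Golgi protein GOLM1 (log2 5.55). Genes that act on the proteins of the cluster moved less uniformly, with 6 of 14 higher and 1 lower and a median of 0.27. Of all tested genes 23.9% were higher and 23% lower. Among the 6, CUBN (0.0942 to 0.432 CPM) and CYP27B1 (0.482 to 1.41 CPM) were at low levels. DAB2, an adaptor for uptake of albumin and vitamin D binding protein, rose by 4.89, the vitamin D degrading enzyme CYP24A1 by 4.25 and the vitamin D receptor VDR by 3.83. VDR was also at a low level: its mean was below that of CYP27B1 in isotonic medium and reached 2.94 CPM with PEG. P4HB, a protein disulfide isomerase, fell by 1.44. In the fit of the dish libraries alone 3 of these 14 genes were higher, and 2 to 4 were lower when any 1 of the 4 libraries was left out.

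**Figure D2:**
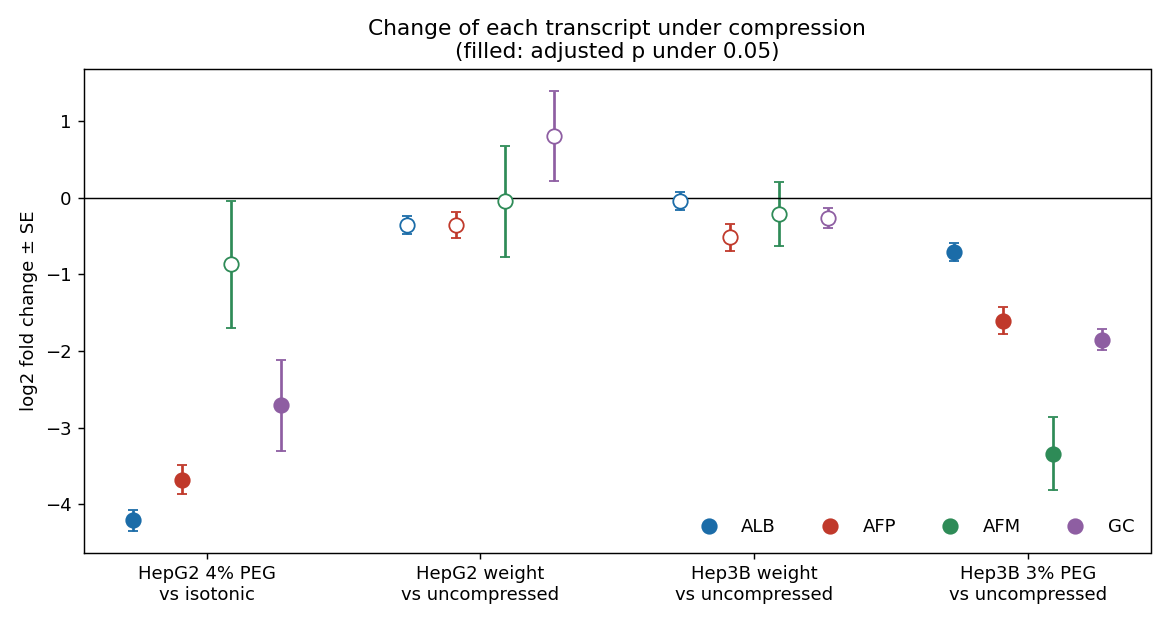
Log2 fold change with its standard error for the 4 cluster genes in the 4 comparisons of compression with control, filled points having an adjusted p under 0.05 by edgeR's quasi-likelihood test. ALB has the largest fall of the 4 with 4% PEG in HepG2, and AFM has the largest with 3% PEG in Hep3B.

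The second comparison was the weight against no weight in HepG2 on transwells. ALB was 43238 ± 283 CPM uncompressed and 33854 ± 993 under the weight, and AFP 22599 ± 240 and 17713 ± 45.6. In both genes the 2 weighted libraries lay below the 2 uncompressed ones. Beside them LYZ was 4886 ± 60.1 CPM uncompressed and 2676 ± 53.4 under the weight, and KRT19 52.9 ± 0.490 and 173 ± 4.38 CPM, whose part was not tested. The log2 fold change was −0.35 ± 0.12 for ALB (edgeR, adjusted p = 0.0832) and −0.35 ± 0.17 for AFP (adjusted p = 0.242), so neither was called with the spread pooled over 14 libraries. When the 4 transwell HepG2 libraries were fitted alone, both were called, ALB at −0.31 (adjusted p = 2.02e-07) and AFP at −0.31 (adjusted p = 2.58e-07). AFM (−0.05 ± 0.72, adjusted p = 1) and GC (ratio 1.79, 95% interval 0.455 to 8.34, adjusted p = 0.628) had too few counts to show a change of that size. The count was thus 0 of 4 members by edgeR (1, ALB, at an unadjusted p under 0.05) and 0 by DESeq2, against 9.58% of all genes by edgeR, 5.4% higher and 4.18% lower.

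Plasma protein genes did not share the direction of ALB here: 5 of 30 rose and 3 fell, with a median of 0.24. Over all tested genes 5.4% were higher and 4.18% lower. C3, the central complement protein, rose from 4360 to 11070.3 CPM (log2 1.34, edgeR adjusted p = 0.000225), while SERPINC1 (log2 −1.14) and TTR, which carries thyroid hormone and retinol-binding protein (−0.66), fell. Plasma genes called besides these were HP, ITIH3, TF, CP (higher) and HPX (lower). Of 31 regulators 3 rose, NR2F1 and CEBPD among them, and 1 fell, NR5A2, while ZHX2 was not called (log2 0.40 ± 0.12, adjusted p = 0.0649). Among 14 genes acting on the proteins of the cluster, 1 rose, CYP24A1, from 8.71 to 72.5 CPM (log2 3.06). IGF2 rose from 6639 to 14521.5 CPM (log2 1.13), as did the fetal genes EPCAM and SPINK1, while PEG10, LIN28B and IGF2BP1 fell. C3, SERPINC1, TTR, CYP24A1 and IGF2 kept their calls when each library was left out in turn, whereas each other call in these lists was lost without at least 1 of the 4 libraries: plasma genes higher went down to 1 without uncompressed replicate 2, and no regulator was then higher. Fitted alone, the transwell HepG2 groups gave 15 plasma genes higher and 7 lower and 9 regulators higher and 7 lower.

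In Hep3B the weight gave no call in the cluster either. ALB was 27592 ± 76.3 CPM uncompressed and 26880.5 ± 42.1 under the weight, with a log2 fold change of −0.04 ± 0.12 (edgeR, adjusted p = 1). AFP was 637 ± 0.0675 and 444 ± 51.0 CPM (−0.52 ± 0.17, adjusted p = 0.284), GC 2764 ± 80.003 and 2309 ± 26.4 CPM (−0.26 ± 0.13, adjusted p = 0.687) and AFM 18.8 ± 0.264 and 16.2 ± 0.159 CPM (−0.21 ± 0.41, adjusted p = 1). For each of the 4 genes both weighted libraries lay below both uncompressed ones. In the fit of these 4 libraries alone AFP was called (−0.48, edgeR adjusted p = 0.00119), as was GC (−0.22, adjusted p = 0.00748). No member was called by DESeq2, and 1 of 4, AFP, had an unadjusted p under 0.05 in edgeR. Over all genes 1.05% were called, 0.879% higher and 0.172% lower.

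ZHX2 was the only 1 of 31 regulators called under the weight in Hep3B, rising from 54.6 to 120 CPM (log2 1.14 ± 0.12, edgeR adjusted p = 0.000985), a call that held with each library left out. Fitted alone, the groups gave 3 regulators higher and 6 lower. Among 30 plasma genes TF and CP rose and HP, HPX, FGB and FGG fell, with a median of −0.11, against 0.879% of all tested genes higher and 0.172% lower. These plasma calls rest on single libraries: not all of them held when any 1 of the 4 libraries was left out. The groups alone gave 6 plasma genes higher and 11 lower. None of 15 fetal genes was called by edgeR, against 5 at an unadjusted p under 0.05 and 5 by DESeq2, and none of 14 handling genes, against 1 and 0. Whether the weight acted differently on the cluster in the 2 lines was tested as an interaction, which called none of the 4 genes in edgeR or DESeq2, nor at an unadjusted p under 0.05, against 1.89% of all genes, 0.822% higher and 1.07% lower. The largest difference with usable counts was that of ALB, 0.32 ± 0.16 (Hep3B minus HepG2; edgeR, adjusted p = 0.5), and it was called in the fit of the transwell weight groups alone (0.30, adjusted p = 0.000275).

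With 3% PEG in Hep3B all 4 members fell, in a comparison where 22.5% of all genes were called and 11.5% lower. AFM fell from 18.8 ± 0.264 to 1.85 ± 0.226 CPM, 10.1-fold (log2 −3.34 ± 0.48, edgeR adjusted p = 0.00049). GC fell from 2764 ± 80.003 to 765 ± 26.3 CPM, 3.62-fold (−1.85 ± 0.14, adjusted p = 5.41e-06). AFP fell from 637 ± 0.0675 to 209.6 ± 17.7 CPM, 3.04-fold (−1.60 ± 0.17, adjusted p = 7.64e-05), and ALB from 27592 ± 76.3 to 16917 ± 595 CPM, 1.63-fold (−0.71 ± 0.12, adjusted p = 0.00127). The order of the falls was therefore AFM, GC, AFP, ALB, the abundant gene moving least, and all 4 calls held with each library left out. KRT19 was 171 ± 4.55 CPM uncompressed and 34.0 ± 2.18 with PEG, and SOX9 168 ± 4.30 and 71.2 ± 1.496 CPM, whose part was not tested.

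Set directly against the weight, PEG gave lower levels of each member: weight minus 3% PEG was 0.67 ± 0.12 for ALB (edgeR, adjusted p = 0.00182), 1.08 ± 0.17 for AFP (adjusted p = 0.000991), 3.12 ± 0.47 for AFM (adjusted p = 0.000747) and 1.59 ± 0.13 for GC (adjusted p = 1.24e-05). Here 23.1% of all genes were called, 11.8% higher under the weight and 11.4% lower. The weight and PEG comparisons in Hep3B share their uncompressed libraries, so their fold changes are not independent. In HepG2 the PEG effect exceeded the weight effect for ALB by −3.86 ± 0.17 (adjusted p = 1.07e-07) and for AFP by −3.33 ± 0.25 (adjusted p = 2.75e-06), with 29.9% of all genes called, 14.4% higher and 15.5% lower. GC differed by −3.52 ± 0.85 (edgeR, adjusted p = 0.0187), on 12 counts in isotonic medium, 2 with PEG, 4 uncompressed and 7 under the weight. It was tested in HepG2 only through its Hep3B counts, so this call is not counted with those of ALB and AFP. The call ended without isotonic replicate 1, HepG2 uncompressed replicate 1 or HepG2 weight replicate 2. With 1 library left out the GC difference ranged from −4.40 to −2.67. AFM was not called (−0.82, adjusted p = 0.631). Dish and transwell cannot be told apart from PEG and weight in that contrast. The 2 PEG effects were not compared by a test, because concentration, line and surface all differ between them.

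The 30 plasma genes were more divided in Hep3B with 3% PEG than the cluster: 13 fell and 6 rose, with a median of −0.39 compared with −0.01 over all genes. The shares over all tested genes were 11.5% lower and 11% higher. KNG1, kininogen, fell from 272 to 12.6 CPM (log2 −4.43), and ITIH2, a hyaluronan-binding inhibitor chain, fell by 1.73. SERPINC1 rose from 0.420 to 4.68 CPM (log2 3.46). Of the 30, 11 had a lower fold change than ALB, and 2 had a lower one than AFM.

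Of 31 regulators, 15 fell and 2 rose in Hep3B with 3% PEG, with a median of −0.44. Over all tested genes 11.5% were lower and 11% higher. With 1 of the 4 libraries left out, 6 to 10 were called lower, the fewest without uncompressed replicate 2. HLF fell from 42.2 to 10.96 CPM (log2 −1.95), and NR1H4 (−1.52) fell as well. CEBPB, an inflammation-responsive C/EBP factor, rose by 2.17. HNF4A rose by 0.48 (edgeR, adjusted p = 0.036), a call lost without any 1 of the 4 libraries, with an adjusted p of up to 0.177. CEBPA (−0.53 ± 0.30, edgeR adjusted p = 0.237) was not called. FOXA2 fell by 0.38, and without 1 library its adjusted p reached 0.142. ZHX2 fell by 0.60 (adjusted p = 0.00512; 0.0592 without uncompressed replicate 2), so that it was called higher under the weight and lower with PEG in the same line.

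Of 15 fetal genes 9 fell and 2 rose, the median being −0.57 (6 or 7 fell with 1 of the 4 libraries left out). Over all tested genes 11.5% were lower and 11% higher. IGF2 (log2 −2.12) and the imprinted noncoding RNA H19 (−1.81) fell, and SPINK1 rose by 5.12 on the log2 scale. The other riser, GOLM1 (0.77), was lost without any 1 of the 4 libraries (edgeR adjusted p up to 0.259). Among 14 handling genes FCGRT, a subunit of the receptor that rescues albumin from breakdown, fell by 1.62 (adjusted p = 0.00643; 0.0603 without 3% PEG replicate 1), and SAR1B, a small GTPase of secretory vesicles, rose by 0.87.

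**Figure D3:**
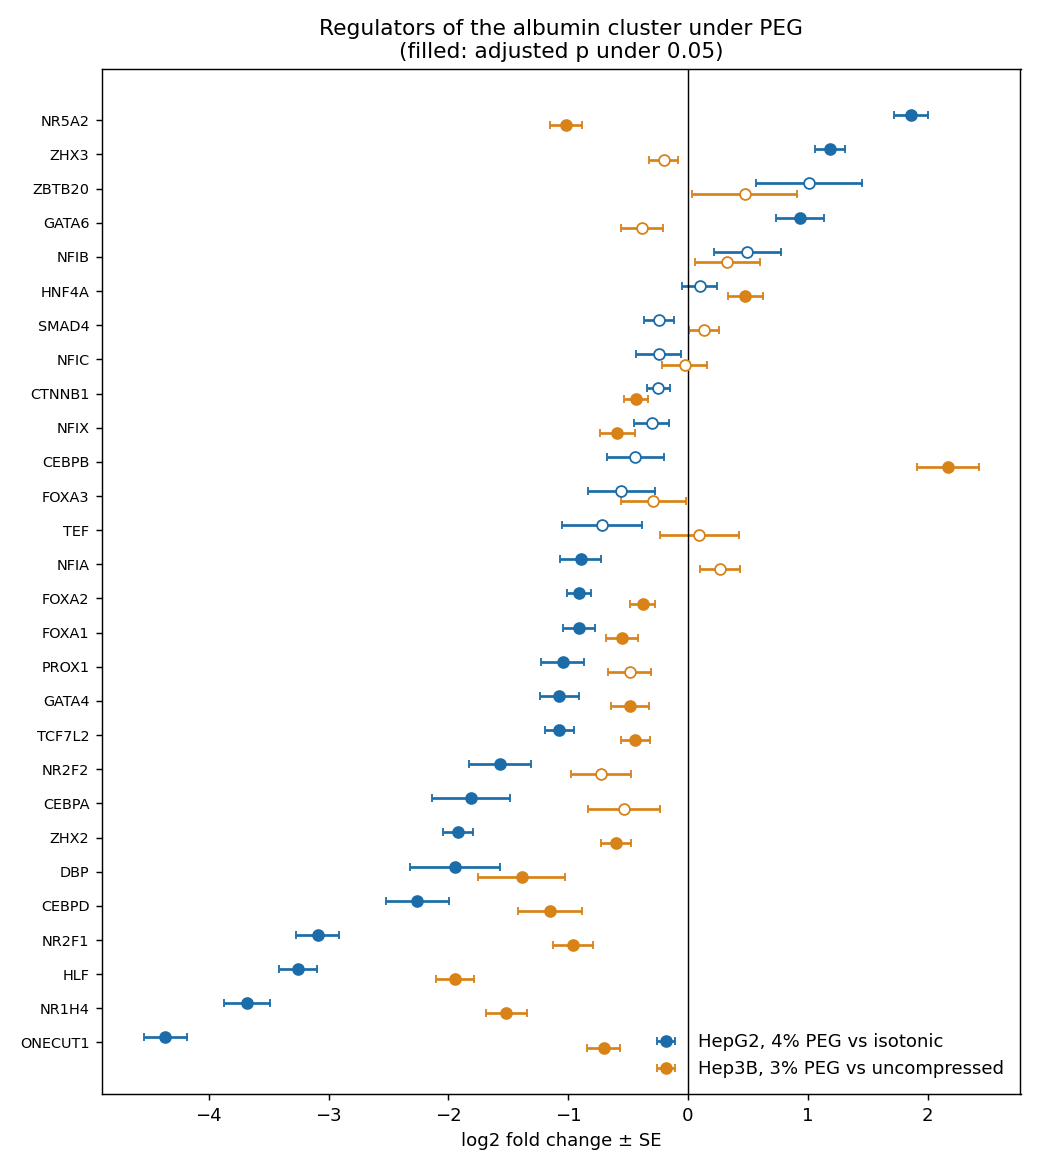
Log2 fold change with its standard error for 28 regulators of the cluster with 4% PEG in HepG2 and 3% PEG in Hep3B. Most regulators lie below 0 in both, 15 of those shown being called lower in HepG2 and 14 in Hep3B, and NR5A2 lies above 0 in HepG2 and below 0 in Hep3B.

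Because each library measures all 4 genes, ratios within a library do not depend on its depth or scaling. Per kb of exon, AFP stood at 0.466 and 0.444 of ALB in isotonic HepG2 and at 0.715 and 0.588 with 4% PEG, so the ratio was higher in both PEG libraries. On transwells it was 0.548 and 0.535 uncompressed and 0.555 and 0.530 under the weight, which overlap. In Hep3B it went the other way: 0.0239 and 0.0240 uncompressed, 0.0157 and 0.0185 under the weight and 0.0133 and 0.0124 with 3% PEG, with no overlap. A 2-sided exact permutation test of 2 libraries against 2 cannot give a p below 0.333, the value found for each of the separate pairs of groups.

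GC relative to ALB, per kb, was 0.139 and 0.145 in uncompressed Hep3B, 0.123 and 0.121 under the weight and 0.0641 and 0.0641 with 3% PEG. AFM relative to ALB averaged 0.00102, 0.000906 and 0.000165 in the same groups. Among the Hep3B groups all 3 ratios to ALB were therefore lowest with 3% PEG.

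**Figure D4:**
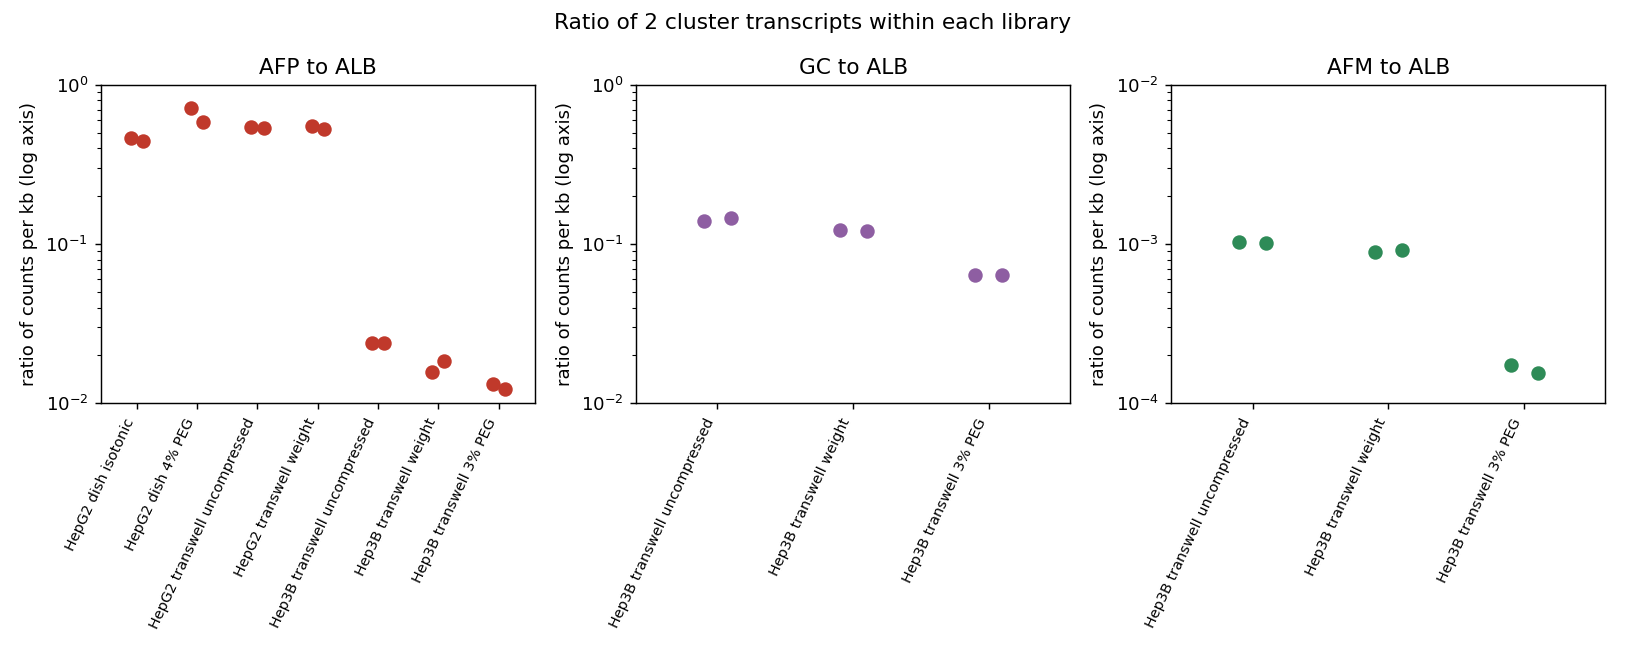
Ratios of cluster genes within each library, from counts per kb of exon on a log axis: AFP to ALB in all 7 groups, GC to ALB and AFM to ALB in the Hep3B groups. AFP to ALB is higher with 4% PEG than in isotonic medium in HepG2, and all 3 ratios are lowest with 3% PEG in Hep3B.

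The lines themselves were compared uncompressed on transwells. Hep3B had 35.5-fold less AFP and slightly less ALB, but far more GC and AFM. AFP was 637 ± 0.0675 CPM in Hep3B and 22599 ± 240 in HepG2 (log2 −5.15 ± 0.20, edgeR adjusted p = 2.59e-09), and ALB was 27592 ± 76.3 and 43238 ± 283 CPM (−0.65 ± 0.12, adjusted p = 0.000571; −0.32 under scaling by total counts). GC had 157890 counts against 4, a ratio of 32191 (95% interval 12572 to 118147), with an adjusted p of 2.42e-11. AFM had 1073 counts against 23, a ratio of 38.0 (25.2 to 60.3), with an adjusted p of 9.73e-06. All 4 were called, GC being tested only through its Hep3B counts, against 54.7% of all genes, 27.6% higher and 27.1% lower, and these uncompressed groups also serve as the controls of the weight comparisons. In HepG2, transwell against dish without compression gave no edgeR call in the cluster, with ALB at an unadjusted p under 0.05 and called by DESeq2 (ALB −0.32 ± 0.12, edgeR adjusted p = 0.1; AFP −0.07, adjusted p = 0.841), with 10.1% of all genes called, 4.79% higher and 5.33% lower. In this comparison, surface cannot be told apart from culture time, which is not stated for transwells, or from any difference in handling or sequencing.

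Of 31 regulators 13 were higher and 8 lower in Hep3B, with 5 lower without HepG2 uncompressed replicate 1 and 13 lower in the fit of the 4 libraries alone. Over all tested genes 27.6% were higher and 27.1% lower. HLF was 42.2 against 825 CPM (−4.29), ZHX2 54.6 against 141 CPM (−1.36), and NR5A2 255.5 against 8.83 CPM (4.85). CEBPA was higher by 1.73 and ZBTB20 by 1.38 (adjusted p = 0.023). The ZBTB20 call was lost without HepG2 uncompressed replicate 1 (adjusted p = 0.15) or Hep3B uncompressed replicate 2 (0.13). HNF4A (−0.17, edgeR adjusted p = 0.36) and FOXA2 (−0.11, adjusted p = 0.373) were not called and turned positive, still uncalled, under scaling by total counts.

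Plasma genes were mostly lower in Hep3B, 24 of 30 with 4 higher and a median of −1.53. The shares over all tested genes, 27.6% higher and 27.1% lower, stand beside this count and the fetal and handling counts below. SERPINC1 (−8.15) and PLG, plasminogen (−6.87), were among the lowest, and the 4 higher genes were KNG1 (5.32), HPX, the haem carrier hemopexin (5.02), HRG, histidine-rich glycoprotein (3.19), and VTN, vitronectin (1.73). Of 15 fetal genes 6 were lower, among them the paternally expressed gene PEG10 (−3.91) and GPC3 (−1.49). IGF2BP3, SALL4, EPCAM and H19 were higher, the last with 127727 counts against 3 (ratio 34722, 95% interval 11881 to 168370). H19 was tested only through its Hep3B counts. Of 14 handling genes CYP2R1, DAB2, STRA6 and CUBN were higher and CYP24A1, SEC23A, SAR1B, P4HB and CYP27B1 lower. CYP2R1, which makes 25-hydroxyvitamin D, the main ligand of the GC product, was higher by 3.49, and CYP24A1 was lower (−6.10).

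The neighbourhood on chromosome 4 was examined from 1 Mb before GC to 1 Mb after AFM, which holds 23 other protein-coding genes in GENCODE 29, of which 19 were tested. In Hep3B 15 were higher than in HepG2 and 1 was lower, with a median of 5.00 (4.81 with genes at no count in HepG2 set to their lower bound) compared with 0.02 over all genes. In HepG2 10 of the 19 were under 1 CPM, and genes tested only through their Hep3B counts had to come out higher there, so that this count and median are descriptions. PF4V1, PF4, PPBP and EPGN were not tested.

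On the AFM side lie the chemokine genes. CXCL6 and CXCL1 had no count in uncompressed HepG2 and were at least 255.5-fold and 332-fold higher in Hep3B, with the bound set at 3 counts over the HepG2 group. CXCL5 had a ratio of 1111 (95% interval 380 to 5390), CXCL3 of 175 (31.1 to 6957), CXCL2 of 68.5 (11.96 to 2738) and CXCL8 of 32.1 (26.0 to 39.9). The growth factor genes EREG and AREG had ratios of 101 (61.9 to 177) and 5.75, and RASSF6, between ANKRD17 and CXCL8, one of 29.6 (11.3 to 110). CXCL1, CXCL2, CXCL3, CXCL5 and CXCL6 were near 0 in every HepG2 group, so that they were tested only through their Hep3B counts, and PF4, PF4V1 and PPBP, near 0 in both lines, were not tested. The calls for these 5 genes therefore only describe which genes Hep3B expresses.

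On the GC side, SLC4A4, a bicarbonate cotransporter, had a ratio of 427 (183 to 1317). NPFFR2 and ADAMTS3, between GC and ALB, were at least 5.44-fold and 54.6-fold higher. SLC4A4, NPFFR2 and ADAMTS3 were tested only through their Hep3B counts, so their calls also only describe which genes Hep3B expresses. More evenly expressed genes of the region differed less: RUFY3 by 1.501, DCK by 1.47 and MOB1B by 1.24 on the log2 scale, and COX18 was lower (−0.72). GRSF1 (0.19, edgeR adjusted p = 0.271), ANKRD17 (0.01, adjusted p = 0.965) and MTHFD2L (−0.47, adjusted p = 0.13) were not called. The nearest genes on the GC side of ALB are thus ANKRD17, not called, and COX18, called lower, and those on the far side of AFP are AFM and RASSF6, both higher in Hep3B.

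**Figure D5:**
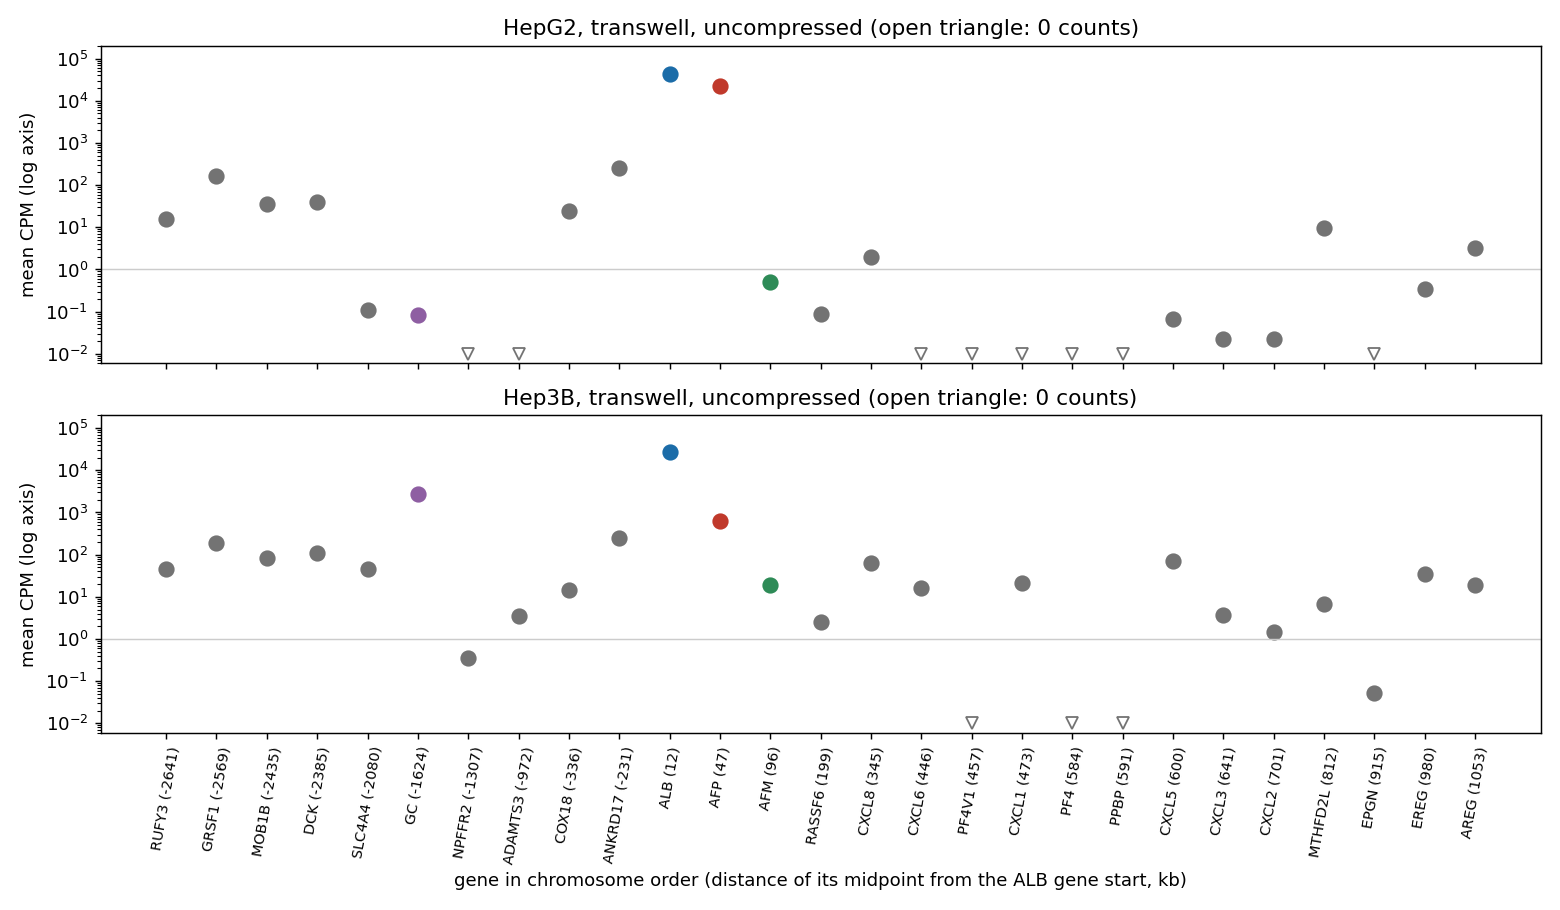
Mean level in CPM, on a log axis, of the 4 cluster genes and their 23 neighbours in chromosome order in uncompressed HepG2 and Hep3B on transwells, with distances from the start of ALB in kb; open triangles mark genes with no count. ALB and AFP are higher in HepG2, and GC, AFM and the chemokine genes named CXCL are higher in Hep3B. PF4, PF4V1 and PPBP have no count in either group.

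The neighbours moved in both directions under PEG. With 4% PEG in HepG2, where ALB and AFP fell, 6 of 19 rose and 2 fell, against 23.9% of all tested genes higher and 23% lower. RASSF6 rose by 6.09, AREG by 4.24, EREG by 4.08, SLC4A4 by 2.03, RUFY3 by 1.03 and MOB1B by 0.90. COX18 (−0.89) and DCK (−0.70) fell. SLC4A4 was near 0 in both groups, at 0.0765 and 0.341 CPM, and RASSF6 and EREG started from 0.147 and 0.176 CPM. SLC4A4 was tested only through its Hep3B counts, as were NPFFR2, ADAMTS3, CXCL1, CXCL2, CXCL3, CXCL5 and CXCL6. These genes are among the 19 but had little room to be called in HepG2, so the HepG2 counts out of 19 are descriptions. Without 4% PEG replicate 1 the calls of MOB1B (adjusted p = 0.0925) and SLC4A4 (0.144) were lost, and that of SLC4A4 was also lost without isotonic replicate 2 (0.0592). In the fit of the 4 dish libraries alone 3 neighbours were higher and none lower. Under the weight in HepG2, 4 of 19 rose, namely AREG, RASSF6, CXCL8 and EREG, against 5.4% of all tested genes. AREG rose by 2.50 and kept its call with each library left out, whereas the other 3 lost theirs without at least 1 library, with RASSF6 at an adjusted p of 0.255 without HepG2 uncompressed replicate 2. Under the weight in Hep3B edgeR called 0 of 19 neighbours, with 2 at an unadjusted p under 0.05 and 0 called by DESeq2.

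With 3% PEG in Hep3B the tested chemokine genes fell as the 4 members did. The log2 fold change was −4.57 for CXCL1, −3.19 for CXCL5, −3.12 for CXCL3, −2.84 for CXCL6, −2.59 for CXCL8 and −1.47 for CXCL2. SLC4A4 (−1.35) and COX18 (−0.47) fell too, while EREG rose by 2.55, AREG by 1.38, RUFY3 by 1.24 and ANKRD17 by 0.50. This made 8 of 19 lower and 4 higher, with a median of −0.16, against 11.5% of all tested genes lower and 11% higher. The calls of ANKRD17 (up to 0.27), COX18 (up to 0.176) and CXCL2 (up to 0.144) were lost when 1 library was left out. EREG and AREG were thus higher with PEG in both lines, in which ALB and AFP were lower.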

How the data were processed

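Per the labels, RNA came from RNeasy mini columns and was read as 100 bp pairs by HiSeq or NovaSeq. STAR, DESeq2 and the GRCh38 (hg38) build are named, without versions, in the submitters' processing notes; how reads were counted is not given in the sources used here. In the deposited table the authors give unnormalised counts, whole numbers per gene and library, with replicates kept apart. Columns headed Hep3B control were taken as uncompressed Hep3B.

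Counts were fitted with edgeR 4.0.16 in R 4.3.3 (filterByExpr, TMM, glmQLFit with robust estimation) on all 14 libraries with 1 mean per group. Adjusted p-values cover 19232 genes, with a threshold of 0.05. Where a gene had few counts, exact 95% Poisson ratio intervals are given, and these, like the bounds at 3 counts, cover counting error only. Entries without a gene name held at most 0.308% of a library. Alternatives were other scalings, library sizes without the members, other filters, a GC-content offset, a replicate term, the compared groups alone, DESeq2 1.42.0 and each library left out. The main fit was tested on simulated data.

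The members and gene lists were chosen with earlier results of these data known. Besides the members, the text names every neighbour, a fixed few regulators, and up to 3 genes per list and comparison with the smallest p; genes named beyond these, where a list had few calls, were chosen after their values were seen. A few listed regulators are counted but not reported by name or plotted. Promoters are from RefSeq.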

Additional observations from a re-analysis of the deposited data

Results flagged for a closer look

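Whether the weight acted differently in the 2 lines was tested as an interaction (effect in Hep3B minus effect in HepG2, edgeR's quasi-likelihood test). Among 31 regulators, 14 handling, 15 fetal, 30 plasma and 19 neighbouring genes, 5 genes passed it, against 1.89% of all tested genes. The complement gene C3 differed by −1.42 (adjusted p = 0.00417): its level was 4360 CPM uncompressed and 11070.3 CPM under the weight in HepG2, and 2649 and 2510 CPM in Hep3B. For haptoglobin, HP, the difference was −2.66 (adjusted p = 0.00171), with 65.2 and 149 CPM in HepG2 and 2.89 and 1.03 CPM in Hep3B. Both calls held with each of the 8 libraries left out, the largest edgeR adjusted p being 0.0378 for C3 and 0.0206 for HP.

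The other 3 lost their call in some of those fits. AREG differed by −2.33 (adjusted p = 0.0115; 3.28 and 18.6 CPM in HepG2, 18.7 and 21.1 CPM in Hep3B), and was lost in 4 of 8 with an edgeR adjusted p of up to 0.085. SERPINC1 differed by 1.96 (adjusted p = 0.0155; 120 and 54.7 CPM in HepG2, 0.420 and 0.743 CPM in Hep3B), and was lost in 7 of 8, with up to 0.104. SPINK1 differed by −1.47 (adjusted p = 0.0228; 2.35 and 4.90 CPM in HepG2, 1.96 and 1.47 CPM in Hep3B), and was lost in 7 of 8, with up to 0.146.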

How the results depend on the processing

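Depth limits AFM and GC in HepG2, where single counts decide a ratio, and 2 libraries per group limit every comparison. ALB and AFP kept direction and call with PEG and between the lines in all fits run. Scaling by total counts moves the median of all genes by 0.34 to 0.37 with 4% PEG, between lines and in the HepG2 interaction of PEG and weight, and by 0.14 between surfaces. The share of higher calls then goes from 50.9% to 70.5% with 4% PEG, from 48.8% to 59.3% with 3% PEG, from 50.9% to 40.5% for weight against PEG, from 50.5% to 65.5% between lines, from 47.3% to 71.2% between surfaces and from 48.1% to 68.1% in that interaction. Total counts also turned uncalled values: HNF4A to 0.16 and FOXA2 to 0.21 between lines, and AFP to 0.0589 between surfaces.

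Calls for the weight and between surfaces depended on the fit. With the compared groups alone, the weight was called for ALB (−0.31, edgeR adjusted p = 2.02e-07) and AFP (−0.31, 2.58e-07) in HepG2, AFP (−0.48, 0.00119) and GC (−0.22, 0.00748) in Hep3B and for the ALB interaction (0.30, 0.000275), while uncalled AFM turned to 0.00018 in HepG2 and ANKRD17 to −0.00285 between lines. Without a low-count filter ALB (−0.37) and AFP (−0.37) in HepG2, AFP in Hep3B (−0.54) and ALB between surfaces (−0.29) were called. ALB between surfaces was also called with the 5 CPM filter (−0.40) and DESeq2 (−0.34). A GC-content offset gave AFP −0.51 in Hep3B under the weight and ALB −0.29 between surfaces, both called, and turned uncalled AFM to 0.0325 in HepG2. The cause of these changes was not tested. AFM and GC were too low for a fit of the dish groups alone.

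With the groups alone, all-gene counts went from 9011 to 3764 (4% PEG), 1842 to 6972 (HepG2 weight), 202 to 2474 (Hep3B weight), 4323 to 9864 (3% PEG), 4444 to 9328 (weight against PEG), 1947 to 0 (surfaces), 364 to 3733 (weight interaction) and 5751 to 3551 (PEG against weight in HepG2). Leaving out 1 compared library gave 480 to 692 calls for the HepG2 weight, 38 to 120 for the Hep3B weight, 1999 to 2143 for 3% PEG, 2018 to 2467 for weight against PEG, 188 to 3829 between surfaces and 100 to 141 for the weight interaction.

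With 1 library left out, AFM ranged from −6.23 to 0.0719 with 4% PEG, from −0.82 to 0.72 under the HepG2 weight, from −0.31 to 0.98 between surfaces, from −0.94 to 0.60 in the weight interaction and from −6.20 to 0.12 in that of PEG and weight. GC ranged from −2.94 to −2.36 with 4% PEG, from −0.0476 to 1.68 under the HepG2 weight and from −4.40 to −2.67 in the interaction of PEG and weight. HNF4A ranged from −0.15 to 0.38 with 4% PEG, and ANKRD17 from −0.0924 to 0.117 between lines. Over 135 pairs of a named gene and a comparison, 1298 of 1339 values under other settings kept direction and call, as did 438 of 560 with a library left out.

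The labels do not pair replicate numbers. Same-numbered libraries correlated in their deviations at 0.633 for the dish groups and −0.0777 to 0.0732 elsewhere. The replicate block left 36 of 36 calls of the members as they were, and with the GC-content offset gave AFP −0.51 and ALB −0.29, both called, and AFM 0.0253 in the comparisons named for the offset, with 5139 genes called between surfaces.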

Other observations

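For each member the 5 genes most alike in level were sought among 9300 genes with a mean of at least 10 CPM, by Pearson's r of log2 CPM over the 14 libraries, which fall into separate clusters by line and treatment, so the values are descriptions. Nearest to AFP was HLF, a PAR-domain factor of the regulator list (r = 0.996 over 14 libraries, 0.995 over the 8 of HepG2 and 0.971 over the 6 of Hep3B), followed by NUBPL, HNMT, PDIA6 and ENPP3. Nearest to ALB was FBL, the nucleolar RNA methyltransferase fibrillarin (0.990, 0.997 and 0.986), followed by GGH, SAPCD2, SLC6A14 and NAALAD2. GC was nearest to H19 (0.998, and 0.946 within Hep3B), with LYPD6, CTNND2, TCF7L1 and GALC next, and 351 genes had an r over 0.95 with it. AFM was nearest to DHX15, a splicing helicase (0.975, and 0.992 within Hep3B), with ZNF184, ZNF627, RSRC1 and NUDT12 next. As GC and AFM are near 0 in HepG2, their r over 14 libraries largely restates the difference between the lines.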
